A study of Homo sapiens with 6 samples.

Results

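The genes described here encode the integrins, the laminins and the collagens, chosen by symbol from the deposited gene-level RNA-Seq table of PC-3 cells. They were the 87 symbols of 18973 protein-coding symbols that begin with ITGA, ITGB, LAMA, LAMB, LAMC or with COL and a digit. Of the 87, 18 are integrin alpha chains, 8 are integrin beta chains, 12 are laminin chains and 43 are collagen chains. The other 6 symbols share the letters but are not chains: ITGB1BP1, ITGB1BP2, ITGB1BP3, ITGB3BP, ITGBL1 and COL4A3BP.

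Integrins are receptors made of 1 alpha and 1 beta chain that hold a cell to the matrix outside it and link that matrix to the actin cytoskeleton. Laminins are cross-shaped trimers of an alpha, a beta and a gamma chain, and with the type IV collagen network they form the basement membrane under an epithelium. Collagens are trimers of chains that wind around each other, and they form fibrils, networks, beaded filaments or, in a few cases, membrane proteins.

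PC-3 is an established prostate adenocarcinoma cell line derived from a bone metastasis. Both groups carried a pRetroX-Tet-On-Advanced retrovirus, which supplies the Dox-dependent activator rtTA2, under G418 selection. The tdTom control group carried in addition a pRetroX-Tight retrovirus with tdTomato behind the pPGK promoter, and the TTP-tdTom group the same vector with TTP (tristetraprolin, the product of ZFP36, which binds AU-rich elements in mRNA and speeds its decay); cells were selected for tdTomato. Each group held 3 samples, and all 6 received 300 ng/ml doxycycline (Dox) for 4 h, so the comparison is of TTP-tdTom with tdTom in the presence of Dox and not of Dox with no Dox.

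The table holds 1 FPKM value (fragments per kilobase of transcript, scaled to the number of mapped fragments) per group and assembled locus. The spread between replicates could therefore not be computed, and the differences below carry no error and no test. Columns of the authors' own test in the table were not used. The depth behind a value cannot be read from FPKM. A gene was called lower or higher where the FPKM values, each with 0.1 added, differed by at least 1.5-fold and their mean reached 1. ZFP36 itself was listed at 5.56 FPKM in tdTom and 5.54 in the group labelled TTP-tdTom, so this locus does not check the labels, and every direction below rests on the group names in the table. Epithelial markers were at nearly the same summed level in both groups (194.6 and 194.9 FPKM, 4 of 5 markers at 1 or more). KRT18 (98.2 FPKM in tdTom and 91.5 in TTP-tdTom) and KRT8 (20.9 and 19.1) were at the lower value in TTP-tdTom. KRT19 (60.2 and 67.1) and EPCAM (15.1 and 16.8) were at the higher value there. CDH1, which defines epithelial junctions, entered the sum from an opposite-strand row and was at 0.210 and 0.282 FPKM on its own strand. None of the 5 fibroblast and none of the 5 leukocyte markers reached 1 FPKM in either group. Of the 4 endothelial markers only KDR did, at 7.69 and 4.38 FPKM (summed level of the list 8.68 and 5.44), and of the 4 prostate luminal markers 3 did in tdTom and 2 in TTP-tdTom.

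Of the 87 genes, 45 reached a mean of 1 FPKM, 28 reached 5 and 23 reached 10. In the 45, 11 genes (24.4%) were called lower in TTP-tdTom, beside 22.6% of the 11716 protein-coding symbols that passed the same filter. Another 3 (6.67%) were called higher, beside 2.09% of all. The median log2 difference was -0.29 in the 45 genes and -0.24 in all symbols, and 80.0% and 80.5% lay below 0. The share called lower was thus near the background of the whole table, and the description below concerns individual genes. In RNA from whole cultures, fewer cells that express a gene and less RNA of it per cell cannot be told apart.

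**Figure D1:**
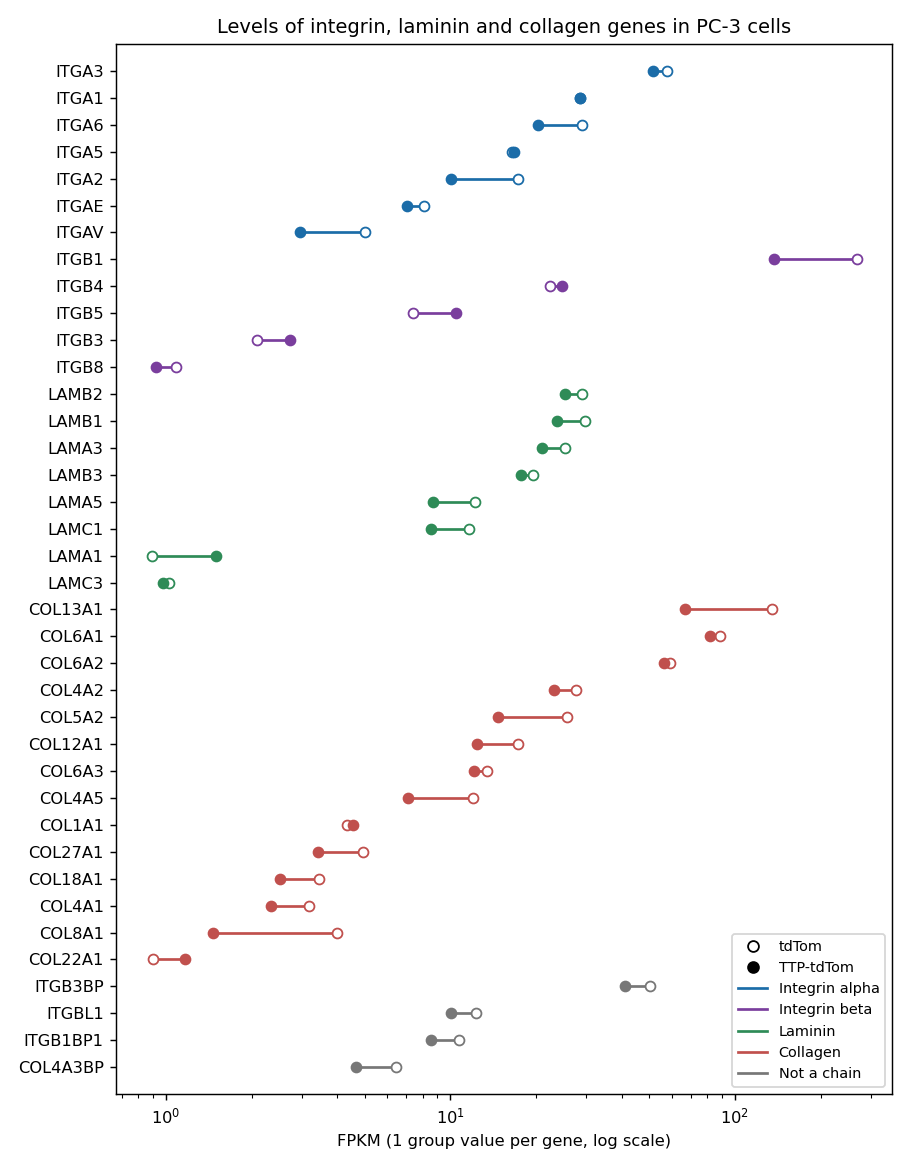
FPKM, on a log axis, of genes with a mean of at least 1 whose row, chosen by RefSeq names and then level, lay on their own strand. Open circles stand for tdTom, filled circles for TTP-tdTom and colours for the families. The own-strand rows of ITGA10 and COL14A1 are not drawn. ITGB1 and COL13A1 had the highest levels in tdTom and both were lower in TTP-tdTom, while ITGB4, ITGB5 and ITGB3 were at the higher value in TTP-tdTom.

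The strand of a row mattered for these genes. The libraries were strand-specific, and locus numbers in the table run along each chromosome once and then start again; for symbols with 1 row, 14996 of 15063 (99.6%) fell in the run that matches their annotated strand. By this reading each of the 87 genes had exactly 1 row on its own strand, and 110 further rows bearing the names of these genes lay on the opposite strand. No row on the own strand was at 0 in either group, whereas 17 opposite rows were. The choice of row by RefSeq names and then by level took an opposite row for 13 genes, and 6 of these were among the 45: ITGA10, COL3A1, COL4A3, COL6A5, COL14A1 and COL17A1. With the row on the own strand for every gene, 41 genes reached a mean of 1 FPKM, of which 7 (17.1%) were lower beside 22.3% of 11439 symbols, and 1 (2.44%) was higher beside 1.04%.

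**Figure D2:**
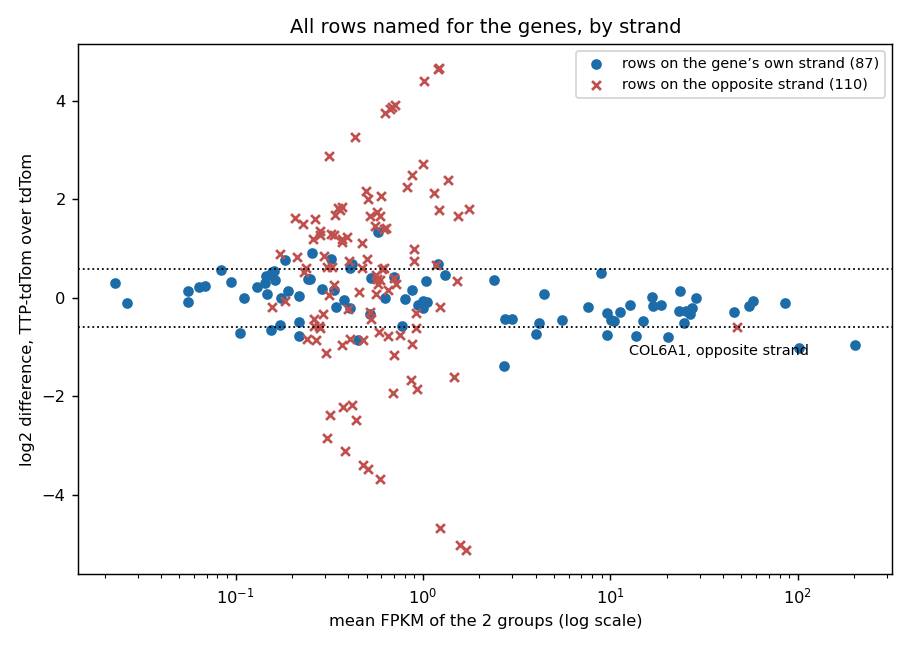
Mean FPKM (log axis) and log2 difference of all 197 rows named for the 87 genes, with circles for the 87 rows on the own strand, crosses for the 110 on the opposite strand and dotted lines at 1.5-fold. Opposite rows had a median mean of 0.515 FPKM and hold the widest differences, and 1 of them, at COL6A1, stands at a mean of 47.6 FPKM.

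The 7 genes lower on their own strand were ITGB1, ITGA2, ITGAV, COL13A1, COL5A2, COL4A5 and COL8A1. The heptamer UAUUUAU, the core of the AU-rich element that TTP binds, is in the annotated 3′UTR of 60.1% of all symbols called lower. Of all symbols not past the fold, 27.1% have it. The 3′UTRs of the lower symbols are also longer, with a median of 1901 bases beside 1014. Per kilobase of 3′UTR, the heptamer occurred 0.477 times in the lower symbols and 0.264 times in those not past the fold. Of the 39 genes taken from their own strand, it is in 8 of the 31 not past the fold. It is in 6 of the 7 lower ones, all but COL4A5. Sites of 5 of these genes are shown as examples from genes past the fold, and not every site is listed; each line gives 11 bases on either side of the heptamer, which is in capitals, read 5′ to 3′ from GENCODE release 29 transcripts on GRCh38.
ITGB1 site 1, chr10:32901607-32901635 (minus strand): ggugaaaauccUAUUUAUaagagugccgu
ITGB1 site 2, chr10:32900409-32900437 (minus strand): uuuacugaaguUAUUUAUuaaauaugccu
COL13A1, chr10:69958736-69958764 (plus strand): uguacauagaaUAUUUAUuuuuauacagu
COL8A1, chr3:99796504-99796532 (plus strand): uuacuuuaaaaUAUUUAUaaauaugccuu
ITGA2, chr5:53091148-53091176 (plus strand): agugauaauuuUAUUUAUaaacuagguaa
ITGAV site 1, chr2:186678102-186678130 (plus strand): uuuccaaagcaUAUUUAUuccauuguuuu
The second site of ITGB1 lies within the longer nonamer UUAUUUAUU, and the others in these lines do not.

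ITGB1, the beta chain shared by most matrix-binding integrins, had the highest level of all 87 genes. It was at 269.0 FPKM in tdTom and 137.4 in TTP-tdTom, so 51.1% of the control level was left (log2 difference -0.97). Its assembled locus is chr10:33174674-33247357 on the authors' build, Hs37D5 (GRCh37 with decoy sequence), and 8.95% of all symbols had a difference as low or lower. The other beta chains lay far below it in level. ITGB4, the partner of ITGA6 in hemidesmosomes, was at 22.3 FPKM in tdTom and 24.7 in TTP-tdTom (log2 difference 0.15). ITGB5, a partner of ITGAV for vitronectin, was at 7.37 and 10.5 FPKM (log2 difference 0.50), short of the fold as deposited and past it after centring or equal-sum scaling, and 2.48% of all symbols had a difference as high or higher. ITGB3, another partner of ITGAV, was at 2.09 and 2.72 FPKM, and ITGB8, which with ITGAV binds latent TGF-beta, at 1.09 and 0.924. Thus 3 of the 5 expressed beta chains were above 0 on the log2 scale, beside 2285 of all 11716 symbols, and also with the FPKM rescaled to an equal sum, while ITGB8 joined them after centring on the median of all symbols and with all rows of a symbol summed. Centring places the median of all symbols at 0 by construction.

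Per kilobase of transcript, the level of ITGB1 was 12.1 times that of ITGB4 in tdTom and 5.56 times in TTP-tdTom, and 36.5 and 13.1 times that of ITGB5. Against the summed FPKM of ITGA1, ITGA2, ITGA3, ITGA5, ITGA6 and ITGAV, which all pair with it, ITGB1 stood at 1.75 in tdTom and 1.05 in TTP-tdTom. ITGA10, whose row by the rule lay on the opposite strand, was left out of the sum. ITGA6 and ITGAV also pair with other beta chains named above, so the sum is not of partners of ITGB1 alone. The row of ITGA1 also names PELO, a gene within it, and the 2 cannot be told apart there; without ITGA1 the ratios were 2.15 and 1.35.

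Of the 8 expressed alpha chains, 2 (25.0%) were lower on their own strand, near the 22.3% of all symbols. ITGA2, which with ITGB1 forms a collagen receptor of epithelial cells, was at 17.2 FPKM in tdTom and 10.1 in TTP-tdTom (log2 difference -0.77). ITGAV, the alpha chain of receptors for RGD-bearing ligands such as vitronectin, was at 5.02 and 2.97 FPKM (log2 difference -0.74). Both calls were lost when differences were centred on the median of all symbols, which moves each value up by 0.24, and when the FPKM were rescaled to an equal sum. ITGA6, a laminin receptor chain, was at 28.98 and 20.40 FPKM (log2 difference -0.50), just short of the fold.

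The remaining alpha chains were closer together in the groups. ITGA3, the most abundant alpha chain and a laminin receptor, was at 57.7 FPKM in tdTom and 51.7 in TTP-tdTom. ITGA5, the fibronectin receptor chain, was at 16.5 and 16.7 FPKM. ITGA1, a collagen receptor chain, was at 28.6 and 28.5 FPKM in the row shared with PELO. ITGAE, known as the CD103 chain of lymphocytes, was at 8.08 and 7.06 FPKM. ITGA10, a collagen receptor chain of cartilage, was at 1.09 and 1.02 FPKM on its own strand, but at 3.39 and 0 in the opposite row that the choice by level took. The signs of ITGA1, ITGA3 and ITGAE turned positive under centring and under the equal-sum scaling. The 10 alpha chains under a mean of 1 FPKM included the leukocyte chain ITGAM, at 0.0519 and 0.0764 FPKM.

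None of the 9 expressed laminin chains was called lower, beside 22.6% of all symbols. LAMB1 and LAMB2, beta chains of the widespread laminins, were at 29.7 and 29.1 FPKM in tdTom and at 23.7 and 25.2 in TTP-tdTom. LAMA3, an alpha chain of epithelial laminins, was at 25.3 FPKM in tdTom and 21.0 in TTP-tdTom, and LAMB3, a beta chain of epithelial laminins, at 19.6 and 17.8. LAMA5 and LAMC1, which with LAMB1 or LAMB2 form laminins of mature basement membranes, had the widest differences below 0 in the family. LAMA5 was at 12.2 FPKM in tdTom and 8.72 in TTP-tdTom (log2 difference -0.48), and LAMC1 at 11.6 and 8.53 (log2 difference -0.45). LAMC3 was at 1.03 and 0.976 FPKM.

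LAMA1, an alpha chain typical of embryonic basement membrane, was the single laminin called higher, at 0.891 FPKM in tdTom and 1.505 in TTP-tdTom (log2 difference 0.70). It was also the single gene of the 87 called higher on its own strand, and its call was lost with a pseudocount of 1 (log2 difference 0.41) and with all rows of the symbol summed (0.22). Of the 9 expressed laminins, 8 (88.9%) were below 0 as deposited, beside 80.5% of all symbols, and 4 after centring, where LAMB2, LAMB3 and LAMC3 were among those that turned positive.

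**Figure D3:**
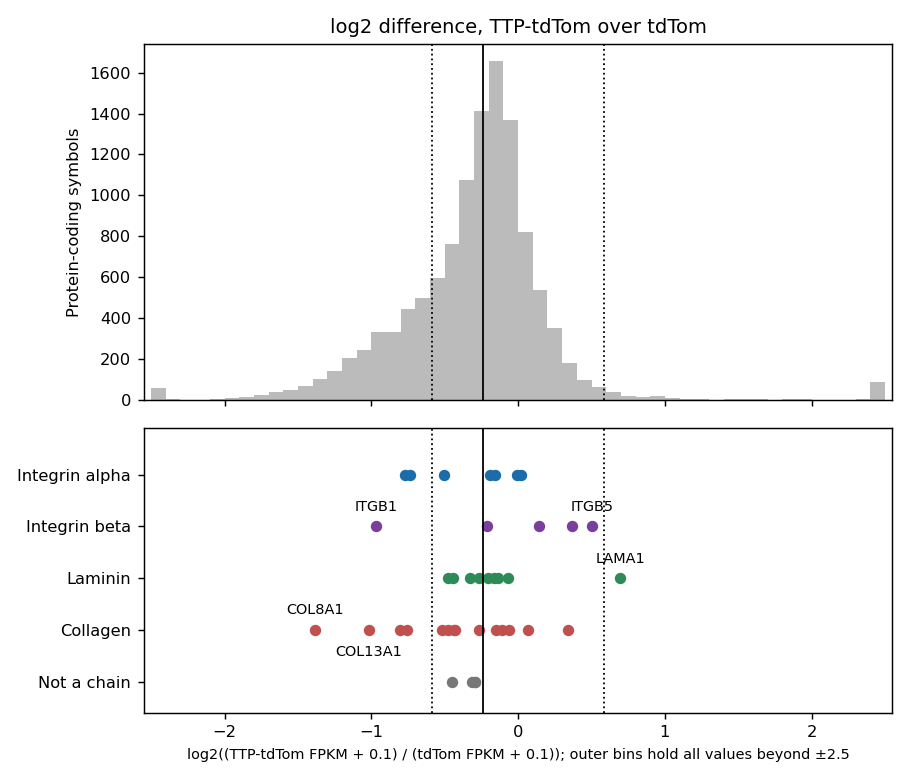
Top, log2 difference of all 11716 protein-coding symbols with a mean of at least 1 FPKM, with outer bins holding the values beyond the axis. Below, the 39 genes on their own strand by family, with dotted lines at 1.5-fold and a solid line at the median of all symbols, -0.24; laminins other than LAMA1 lie between the dotted lines.

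COL13A1, a membrane-spanning collagen found at sites of cell adhesion, had the highest level of the collagens in tdTom. It was at 135.6 FPKM in tdTom and 66.9 in TTP-tdTom, so 49.4% of the control level was left (log2 difference -1.02), and 7.66% of all symbols had a difference as low or lower. Its assembled locus is chr10:71560071-71718913 on GRCh37. The other membrane-spanning collagen among the 45, COL17A1 of hemidesmosomes, was counted from an opposite row (2.27 and 0.673 FPKM) and stood at 0.3001 and 0.1340 FPKM on its own strand, under the filter.

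Among the type VI collagens, which form beaded filaments, COL6A1 and COL6A2 followed COL13A1 in level in tdTom, and COL6A1 was above it in TTP-tdTom. COL6A1 was at 88.7 FPKM in tdTom and 82.0 in TTP-tdTom, COL6A2 at 59.1 and 56.5, and COL6A3 at 13.5 and 12.1. Their log2 differences of -0.11, -0.06 and -0.15 lay above the median of all symbols, and all turned positive under centring. The ratio of COL6A1 to COL6A2 was 1.501 in tdTom and 1.451 in TTP-tdTom, and that of COL6A1 to COL6A3 was 6.57 and 6.76. COL6A5 was at 3.17 FPKM and 0 in an opposite row, but at 0.109 and 0.183 on its own strand.

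Of the 5 expressed basement membrane and network collagens, 2 were lower and 1 was higher by the rule, beside 22.6% and 2.09% of all symbols, and the higher one came from an opposite row. COL4A5, a type IV chain whose loss causes Alport syndrome, was at 12.0 FPKM in tdTom and 7.10 in TTP-tdTom (log2 difference -0.76), a call lost under both rescalings and with all rows of the symbol summed. COL8A1, a short-chain network collagen of vessel walls, was at 3.98 and 1.47 FPKM, so 36.8% was left (log2 difference -1.38). Its row is listed with the assembled locus chr3:99273153-99901441 on GRCh37. An assembled locus can reach beyond a gene, as KRT8 and KRT18 are listed with the same one. COL8A1 had the widest difference of the 87 genes on their own strand among those with a mean of at least 1. COL4A2 and COL4A1, the chains of the common type IV network, were at 27.7 and 3.18 FPKM in tdTom and at 23.1 and 2.34 in TTP-tdTom.

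The type IV genes lie in head-to-head pairs, and the members of a pair differed in level. The loci of COL4A1 and COL4A2 on chromosome 13 are 114 bases apart, and COL4A2 was at 8.73 times the FPKM of COL4A1 in tdTom and 9.87 times in TTP-tdTom. COL4A5 and COL4A6 on the X chromosome are 369 bases apart, with ratios of 12.1 and 7.93, where COL4A6 was at 0.994 and 0.894 FPKM. COL4A3 was counted higher from an opposite row (0.365 and 2.34 FPKM), while its own strand gave 0.225 and 0.120, the other direction.

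Of the fibrillar collagens, COL5A2, which regulates the width of collagen fibrils, was at 25.8 FPKM in tdTom and 14.7 in TTP-tdTom (log2 difference -0.80), a call lost under centring. COL27A1, a fibrillar collagen of cartilage, was at 4.93 and 3.42 FPKM (log2 difference -0.52), the nearest to the fold of the genes short of it. COL1A1, the main collagen of bone and skin, was at 4.34 and 4.56 FPKM. COL3A1, which accompanies type I fibrils, was at 2.46 and 0 in an opposite row and at 0.944 and 0.606 FPKM on its own strand, under the filter.

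COL12A1, which decorates fibrils, was at 17.3 FPKM in tdTom and 12.4 in TTP-tdTom (log2 difference -0.48). COL18A1, the source of endostatin, was at 3.44 and 2.52 FPKM. COL22A1, a collagen of tissue junctions, was at 0.901 and 1.17 FPKM (past the fold with all rows summed), and COL14A1, which also decorates fibrils, at 0.689 and 2.41 in an opposite row and at 1.09 and 1.54 FPKM on its own strand (log2 difference 0.46), short of the fold.

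Of the 6 genes that are not chains, 4 were expressed and none was past the fold. ITGB3BP, a centromere protein, was at 50.3 FPKM in tdTom and 41.1 in TTP-tdTom. ITGBL1, which resembles the extracellular part of a beta chain, was at 12.3 and 10.1 FPKM, and ITGB1BP1, which binds the tail of ITGB1, at 10.7 and 8.56. COL4A3BP, a ceramide transporter, was at 6.43 and 4.67 FPKM (log2 difference -0.45).

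The 42 genes under a mean of 1 FPKM were 24 collagens, 10 alpha chains, 3 beta chains, 3 laminins and 2 genes that are not chains. Their highest mean was 0.944 FPKM and the highest value in a group was 1.38, with 3 genes at 0 in a group in the row taken. They were left out of the calls.

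Lists of other genes of cell and matrix adhesion were read beside the same background, 22.6% of symbols lower and 2.09% higher. Of 25 focal adhesion genes, which encode the proteins on the inner side of integrins, 23 were expressed, 5 (21.7%) were lower and 0 higher, with a median log2 difference of -0.25. FERMT2, a kindlin that activates integrins at the beta tail, was at 137.5 FPKM in tdTom and 50.1 in TTP-tdTom (log2 difference -1.46). LIMS1, the PINCH adaptor bound to integrin-linked kinase, was at 19.5 and 8.32 FPKM, and CRK, a signalling adaptor, at 23.1 and 10.5. On the other side, LIMS2 was at 2.10 and 2.71 FPKM, SRC at 11.7 and 13.2 and BCAR1 at 12.0 and 12.7, all short of the fold as deposited, with LIMS2 past it after centring.

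Of 13 partners of the basement membrane, 11 were expressed and only NTN4, a netrin that binds laminins, was past the fold, at 27.4 FPKM in tdTom and 16.5 in TTP-tdTom, 1 of 11 or 9.09%. FN1, fibronectin, was at 298.2 and 210.5 FPKM, and FBN1, fibrillin, at 6.84 and 4.68. Of 22 collagen-modifying genes, 17 were expressed and only PLOD2, a lysyl hydroxylase of collagen telopeptides, was lower, at 40.2 and 16.1 FPKM (log2 difference -1.31), 1 of 17 or 5.88%. Its relative PLOD1 was at 27.7 and 21.1 FPKM. Of 14 other matrix receptors and partners, 13 were expressed and 3 (23.1%) were lower. These were HMMR, a hyaluronan-binding spindle protein (27.0 and 12.4 FPKM), SDC4, a heparan sulfate proteoglycan of focal adhesions (9.51 and 4.72 FPKM), and CD44, the hyaluronan receptor (266.7 and 165.9 FPKM). The calls of NTN4, CD44 and ACTN4, an actin cross-linker among the 5 lower focal adhesion genes, were lost after centring and with equal sums. SDC2, of the same list as CD44, was at 1.36 FPKM in tdTom and 1.83 in TTP-tdTom, short of the fold as deposited. It was past the fold, in the higher direction, after centring, with equal sums and with rows summed.

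The differences moved with the base composition of the transcripts. Across the 39 of the 45 genes whose row by the rule lay on their own strand (the own-strand rows of ITGA10 and COL14A1 did not enter), Pearson's r of GC content and log2 difference was 0.26 and Spearman's rho 0.35, and across 11552 symbols they were 0.25 and 0.48. Here and in the shares with the heptamer, all symbols kept their row by the rule. That row lay on the opposite strand for 338 of 11716 symbols. The correlations are descriptions across genes of the same libraries, which are not independent replicates. Under 40% GC, 58.9% of all symbols were lower, and at 55% or more 4.00% were. In the first of these bands the median log2 difference was -0.69 in all symbols and -0.29 in the 5 genes described here. Of these 5, ITGB1 (38.5% GC) and ITGAV (38.3%) were lower, and ITGA1, ITGB8 and ITGB3BP were not past the fold. COL13A1 (58.7% GC) lay in the last band, as the 1 lower gene of 16. The median there was -0.10 in all symbols and -0.15 in the 16. The part of GC content in the differences was not tested.

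**Figure D4:**
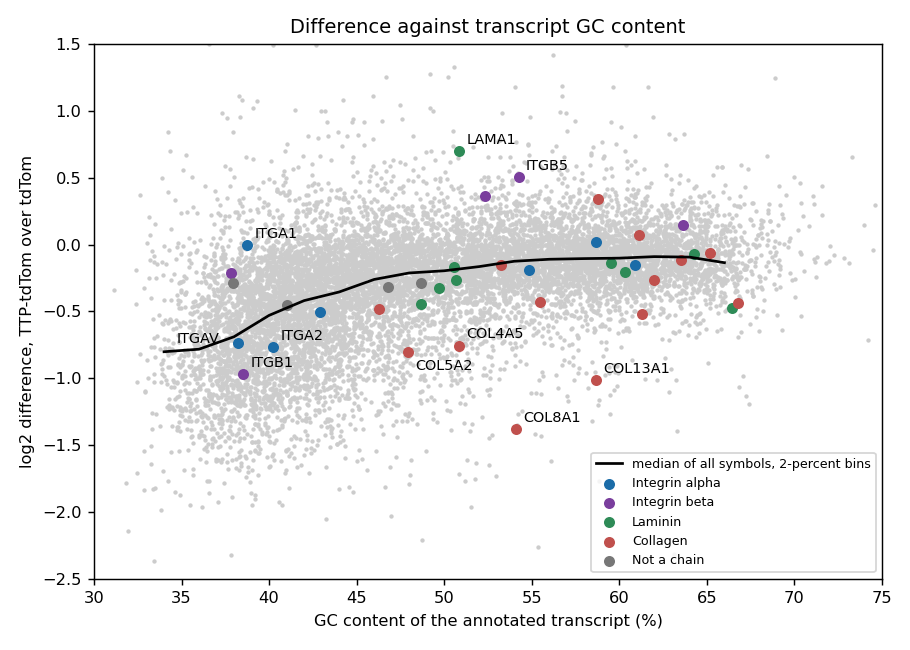
GC content of the annotated transcript and log2 difference for the 39 genes on their own strand (coloured by family) and for all symbols (grey, points beyond the axis not drawn), with the median of all symbols as a line. ITGB1, ITGAV and ITGA2 lie where the median of all symbols is low, and COL13A1 and COL8A1 lie well below the line at higher GC content.

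The heptamer UAUUUAU, sought on the sense strand of the annotated 3′UTR, was present in 34.6% of all symbols, in 60.1% of those called lower and in 27.1% of those not past the fold. Among the 39 genes it was present in 14, in 6 of the 7 lower ones and in 8 of the 31 not past the fold. The median 3′UTR length of all symbols was 1901 bases in the lower ones and 1014 in those not past the fold. In the 39 genes these medians were 1323 and 1150 bases, with 0.741 and 0.344 heptamers per kilobase. The part of 3′UTR length in these shares was not tested. The transcript used was the one linked to a deposited RefSeq name with the longest 3′UTR, a choice made after the longest 3′UTR of any transcript had been tried and seen. With that first choice the heptamer was present in 36.2% of all symbols, in 18 of the 39 genes, in 6 of the 7 lower ones and in 12 of the 31 not past the fold, so the contrast between the lower genes and the rest was smaller. COL8A1 then had 4 copies in place of 1 and a GC content of 46.8% in place of 54.1%, so its position in the plot of GC content depends on the transcript taken. Other genes moved too, such as COL4A1 (40.5% in place of 55.4%), COL4A2 (45.7% in place of 62.0%) and ITGBL1 (39.6% in place of 48.7%). The heptamer then also appeared in COL4A1, COL4A2, ITGB1BP1 and LAMC3. Pearson's r and Spearman's rho were then 0.31 and 0.38 across the 39 genes, beside 0.25 and 0.48 across all symbols.

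The median log2 difference was -0.49 in the 14 genes with the heptamer and -0.19 in the 25 without, beside -0.45 and -0.17 in all symbols. Among single genes, COL5A2 had 3 copies in a 3′UTR of 2174 bases, ITGB1 had 2 in 1323 bases and COL13A1 had 1 in 447 bases. ITGB8 had 6 in 5757 bases with a log2 difference of -0.21, and ITGA1, in the row shared with PELO, had 2 in 6759 bases with a difference of -0.01. COL4A5 was lower without a copy. A match describes letters in the annotated 3′UTR and not binding.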

How the data were processed

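RNA from 6 samples (3 tdTom, 3 TTP-tdTom) was made into strand-specific libraries, aligned by the authors to Hs37D5 with TopHat2 2.0.13 and assembled and compared with Cufflinks 2.2.1, versions as in the submitters' processing notes. The authors deposited FPKM values, 1 per group and locus in 406165 rows, with the replicates combined. Columns of the authors' own comparison (fold change, test statistic, p, q, call) were not used.

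For each symbol with an NM_ name, the row with most RefSeq names and then the highest summed FPKM was taken. Log2 differences used a pseudocount of 0.1 FPKM, a mean of at least 1 FPKM and a fold of 1.5, in Python 3.11.15 with pandas 2.3.3 and numpy 2.4.6; with 1 value per group no test was run here. Scripts were tested on simulated data. Strand, GC content and 3′UTRs came from GENCODE release 29 (GRCh38), matched by symbol; 98.6% of expressed symbols and all 45 expressed members had a 3′UTR. Of these members, 44 had a transcript linked to a deposited RefSeq name. For ITGA10 the strand was turned, because its neighbours within 1000000 bases show opposite orientation in the builds.

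Named were the members with a mean of at least 5 FPKM, those past the fold, those nearest to it, and the widest differences of the other lists. Members and lists were chosen with earlier results of these data known. Alternatives were other pseudocounts, filters, folds, rows and scalings; the row on the own strand and the choice of transcript were added after the data were seen. Depth per sample was not given in the table. Some items are not reported here.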

Additional observations from a re-analysis of the deposited data

Results flagged for a closer look

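A row outside the comparison held a high value. On the strand opposite to COL6A1, a row that carries its name was at 57.1 FPKM in tdTom and 38.1 FPKM in TTP-tdTom, beside 88.7 and 82.0 FPKM on the strand of COL6A1 itself. The next highest of the 110 opposite rows had a mean of 1.77 FPKM and their median mean was 0.515 FPKM. What this row counts was not tested.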

How the results depend on the processing

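The table holds no values per sample, so leaving out a replicate was not run, and how far any fold exceeds the spread between samples is unknown. No paired analysis was possible because the table holds 1 value per group. The count of genes lower, 11, became 7 after centring on the median of all symbols (15.6% beside 13.2% of all), 7 with the row on the own strand (chosen after seeing the data, 17.1% beside 22.3%), 17 at a mean of 0.1 FPKM (21.3% beside 18.7%) or with no filter (19.5% beside 18.2%), 4 at a mean of 10 (17.4% beside 23.9% of 5292 symbols), 6 at 2-fold (13.3% beside 8.21%) and 20 at the lower fold tried (44.4% beside 40.1%). The count higher, 3, became 7 with the row of highest FPKM (14.0% beside 2.85%), 8 with rows summed (13.3% beside 4.68%), 5 after centring (11.1% beside 4.05%), 1 on the own strand (2.44% beside 1.04%), 10 at a mean of 0.1 (12.5% beside 8.95%) or with no filter (11.5% beside 9.10%), 0 at a mean of 10 (beside 0.265%) and 6 at the lower fold (13.3% beside 4.47%). The median of -0.29 (beside -0.24 in all symbols) became -0.15 with rows summed (beside -0.22) and -0.155 at a mean of 0.1 (beside -0.154). It became -0.055 after centring (beside 0), -0.073 with equal sums (beside -0.021) and -0.11 with no filter (beside -0.14). With rows summed and with no filter the median of the genes thus lay above that of all symbols, and as deposited below it. After centring COL4A5, COL5A2, ITGA2 and ITGAV were no longer past the fold and ITGB3 and ITGB5 were. COL6A5 turned to 0.091 with rows summed and 0.43 on the own strand, and COL4A3 to -0.56 on the own strand. Centring and filters act by construction; the cause of the rest was not tested. The precision of values near 1 FPKM is not known.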
